A study of Mus musculus with 15 samples.

Results

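The genes described here are the members of the AP-1 transcription factor family and the immediate-early factors measured with them in mouse skin. They were chosen by name and comprise *Fos*, *Fosb*, *Fosl1*, *Fosl2*, *Jun*, *Junb*, *Jund*, *Atf3* and *Egr1*, which are 9 of the 55487 genes counted. Skin tissue of 3-week-old C57BL/6 mice was profiled in 15 libraries. The 5 WT libraries came from *Otulin* fl/fl littermates without Cre. The 5 non-lesional and 5 lesional libraries came from OTULIN E-KO mice, which are *Otulin* fl/fl mice carrying *K14-Cre*. These groups are told apart by the appearance of the skin sampled. Cre was driven by the keratin 14 promoter, so that keratinocytes lost OTULIN while fibroblasts, muscle, vessels and immune cells of the same tissue piece kept it. The labels do not say whether lesional and non-lesional pieces came from the same mice, and library numbers below are those of the sample titles.

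AP-1 is a family of dimers. Jun proteins pair with each other or with a Fos or ATF protein, and the dimer binds a short palindromic DNA sequence through its basic leucine zipper. Several of these genes are immediate-early genes, which are transcribed within minutes of a growth factor, cytokine or stress signal because MAP kinases activate factors that are already bound at their promoters. In skin, AP-1 dimers regulate keratinocyte proliferation, differentiation, wound repair and inflammatory gene expression. EGR1 is a zinc finger factor induced by the same kinases, and ATF3 is a stress-induced member of the ATF branch.

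Promoter sequences are shown for the members in which any of the letters searched were found, because variants of the cAMP response element, known in the promoters of *Jun* and *Atf3*, are bound by AP-1 and ATF dimers. The promoter table used here, from RefSeq (GRCm38.p6), gave a window from 250 bases before to 50 bases after the transcription start for 7 of the 9 genes, *Fos*, *Fosb*, *Fosl2*, *Jun*, *Junb*, *Jund* and *Atf3*. Each stretch printed ends at the last base before the annotated start, in 5′ to 3′ direction of the gene, with the matched letters in capitals. The stretches are chr12:85473790-85473889 on the plus strand for *Fos*, chr4:95052223-95052392 on the minus strand for *Jun*, chr8:84978749-84978848 on the minus strand for *Junb* and chr1:191183334-191183433 on the minus strand for *Atf3*.
Fos: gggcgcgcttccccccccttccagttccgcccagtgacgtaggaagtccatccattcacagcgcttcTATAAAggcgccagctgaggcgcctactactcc
Jun: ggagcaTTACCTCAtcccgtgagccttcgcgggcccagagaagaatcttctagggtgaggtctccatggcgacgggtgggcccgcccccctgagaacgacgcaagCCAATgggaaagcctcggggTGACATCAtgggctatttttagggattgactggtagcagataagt
Junb: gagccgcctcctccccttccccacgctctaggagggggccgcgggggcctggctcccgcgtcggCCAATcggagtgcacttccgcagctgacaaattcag
Atf3: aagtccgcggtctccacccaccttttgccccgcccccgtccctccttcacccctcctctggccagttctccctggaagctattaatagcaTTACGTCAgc

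The letters were searched on both strands, and a match is a description of the window and not evidence of binding. *Jun* held 2 variants of the cAMP response element, TTACCTCA starting 164 bases and TGACATCA starting 45 bases before the start, which occurred in 0.889% and 3.62% of all 32851 windows of this length. *Atf3* held the variant TTACGTCA starting 10 bases before the start, found in 0.499% of windows. *Junb* and *Jun* each held CCAAT within the stretch shown, as did 37.4% of windows on either strand, and *Fos* held TATAAA starting 33 bases before the start, found in 13.6% of windows. In *Junb* the letters TATAAA began at the annotated start itself. The AP-1 consensus TGANTCA (7.81% of windows), the palindromic element TGACGTCA (1.79%) and the CArG box (1.63%) were not found in the 7 windows, which says only that these letters are not in these windows.

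The libraries held 1962604 to 2567138 counts of 3′ tags, and levels are given as CPM, the counts scaled to a common library total, on TMM-normalised library sizes. In QuantSeq 1 tag is made per transcript end, so that levels of different genes are comparable without a length correction. *Otulin* itself was at 12.2 to 28.2 CPM in WT, 21.3 to 30.7 CPM in non-lesional and 19.0 to 27.2 CPM in lesional libraries, with overlapping ranges in this whole tissue, and where its tags lie relative to the deleted part is not given in the sources used here. All 5 keratinocyte markers were detected in every group, at a summed 7311 CPM in lesional replicate 14 to 12862 CPM in lesional replicate 11. Lesional replicates 2 and 11 stood apart from the other libraries. The summed neutrophil markers were 2992 CPM in lesional replicate 2, 5125 CPM in lesional replicate 11 and 218 CPM in non-lesional replicate 3. They were 1.69 to 20.97 CPM in the other 12. *Ly6g* and *Csf3r* were at 0 in every library and *Cxcr2* was at 0 in WT. The sum thus rests on *S100a8*, *S100a9* and *Retnlg*, and on *Cxcr2* outside WT. Which cells made these transcripts was not tested, so the sum is not a measure of neutrophil number. Lesional replicate 11 also had the lowest summed skeletal muscle markers, 2529 CPM against 10382 to 25539 CPM in the others, and the lowest summed fibroblast markers, 16349 CPM against 25867 to 67630 CPM. Values without these 2 libraries are given beside many of the results below, and the part that cell composition plays in them was not tested. In bulk tissue, fewer cells of a type and less RNA per cell cannot be told apart.

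In WT skin the levels of the members ranged from 163 CPM for *Fosl2* to 1.12 CPM for *Fosl1*. *Fosl2* (163 ± 18.3 CPM, SD, n = 5), *Jun* (150 ± 28.4 CPM) and *Jund* (86.7 ± 16.2 CPM) were the most abundant, and the levels of *Fosl2* and *Jun* overlapped. *Egr1* (60.6 ± 36.5 CPM) and *Junb* (47.3 ± 10.5 CPM) followed and overlapped each other. The WT range of *Egr1* (27.5 to 122 CPM) also overlapped that of *Jund* (61.6 to 104 CPM). *Atf3* (17.95 ± 23.6 CPM), *Fos* (13.4 ± 6.47 CPM) and *Fosb* (9.81 ± 5.98 CPM) did not differ beyond their spread, and *Fosl1* was lowest at 1.12 ± 1.22 CPM. Over all 15 libraries *Jund* varied least, with a coefficient of variation of 16.1%, followed by *Fosl2* (22.7%) and *Jun* (29.5%). *Fosb* varied most (150%), ahead of *Fosl1* (127%), *Junb* (111%) and *Atf3* (106%). Lesional replicate 11 held the highest level of every member except *Jund*, which was highest in WT replicate 4.

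**Figure D1:**
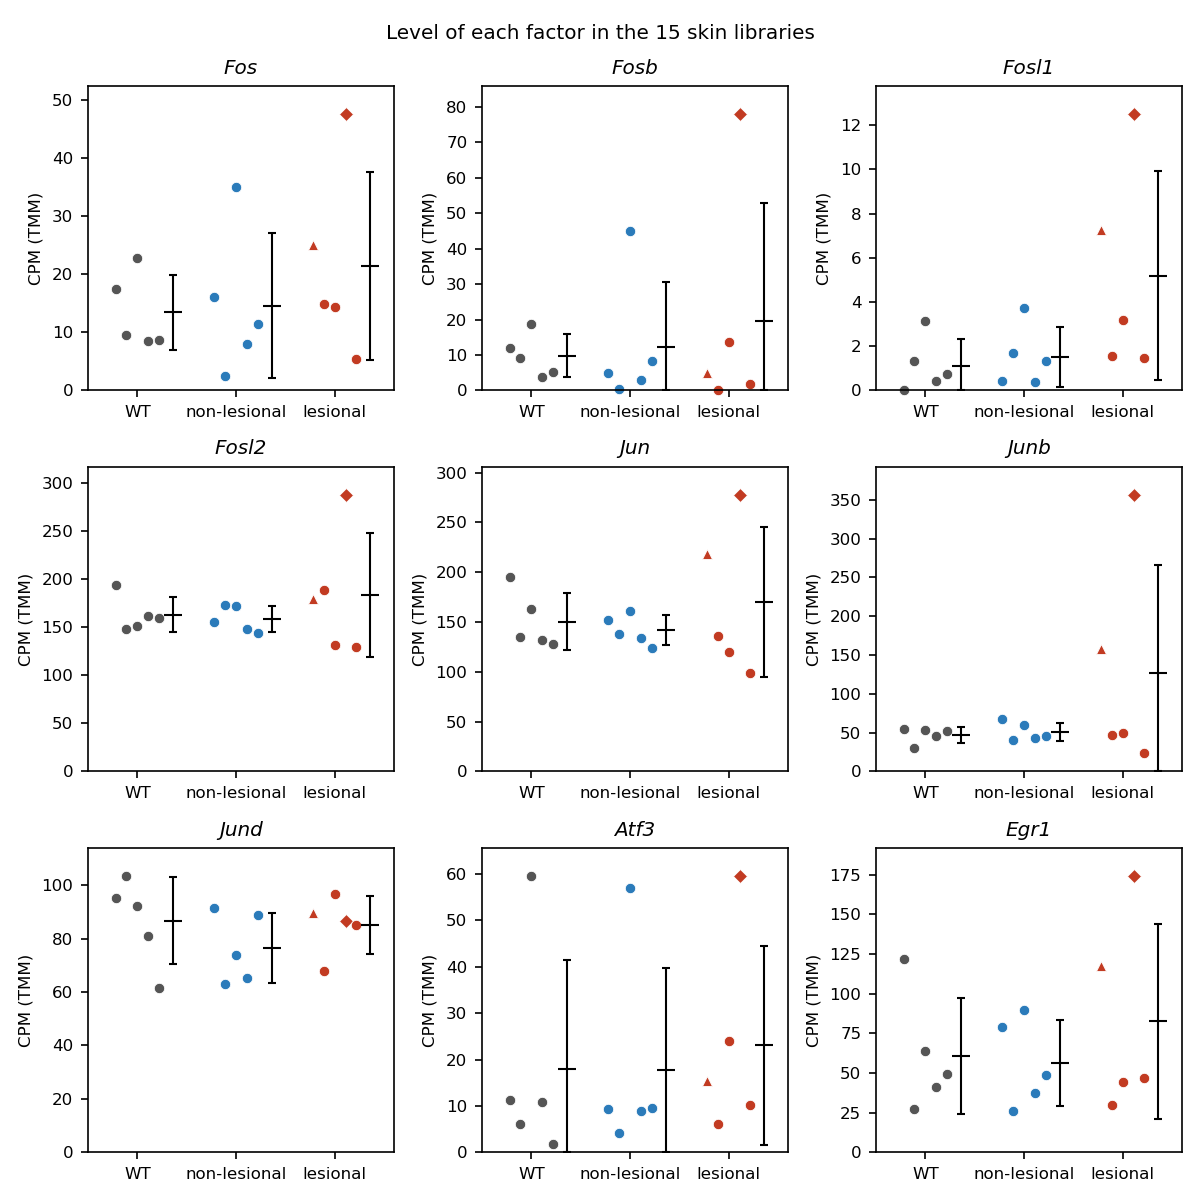
Level of each of the 9 genes in CPM (linear axes from 0) in the 5 WT, 5 non-lesional and 5 lesional libraries, 1 point per library in order of library number, with the group mean and SD at the right of each group (bars are not drawn below 0). The triangle is lesional replicate 2 and the diamond lesional replicate 11, which reached 357 CPM for *Junb* while the other 3 lesional libraries lay between 23.8 and 49.97 CPM.

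*Junb* encodes a Jun protein that restrains c-Jun in many settings and whose loss with c-Jun in mouse epidermis is known to cause psoriasis-like inflammation. In WT libraries 1, 4, 7, 10 and 13 *Junb* was at 55.1, 29.7, 53.7, 45.5 and 52.6 CPM. In non-lesional libraries 3, 6, 9, 12 and 15 it was at 67.7, 40.4, 59.3, 42.5 and 45.9 CPM, a range that overlaps WT. In lesional libraries 2, 5, 8, 11 and 14 it was at 158, 46.7, 49.97, 357 and 23.8 CPM. Thus lesional replicates 2 and 11 lay above every other library, lesional replicate 14 lay below every other library, and the remaining 2 lesional values lay within the WT range. *Junb* had the largest fitted difference among the members that passed the filter on low counts, a log2 fold change of 1.42 ± 0.67 (SE) between lesional and WT (edgeR quasi-likelihood test, unadjusted p = 0.0584, adjusted p = 0.926) and of 1.31 ± 0.67 between lesional and non-lesional (unadjusted p = 0.0812, adjusted p = 0.973). The exact permutation test of mean log2 CPM gave differences of 0.77 (two-sided p = 0.381) and 0.66 (p = 0.389). Leaving out single lesional libraries moved the difference from WT between 0.56 ± 0.48 (without replicate 11, unadjusted p = 0.276) and 1.69 ± 0.59 (without replicate 14, unadjusted p = 0.0186, edgeR quasi-likelihood test), and that from non-lesional between 0.45 ± 0.50 (unadjusted p = 0.396) and 1.58 ± 0.60 (unadjusted p = 0.0298) for the same 2 libraries. With all libraries, limma's voomWithQualityWeights gave 0.52 ± 0.41 and 0.43 ± 0.38 (unadjusted p = 0.219 and 0.278) and DESeq2's Wald test 1.43 ± 0.69 and 1.33 ± 0.68 (unadjusted p = 0.0369 and 0.0529). In edgeR the unadjusted p against WT was also under 0.05 in 1 fit over all 15 libraries (0.0302), without robust estimation (0.028) and with the stricter filter (0.0478), and the adjusted p was 0.632 or more in every setting. With each set of 3 consecutive library numbers as a block the fitted log2 fold changes were 0.81 ± 0.59 and 0.69 ± 0.59, and without lesional replicates 2 and 11 they were -0.24 and -0.34. *Junb* lies at chr8:84974484-84978718 (GRCm38, minus strand), and 173 of its 2301 exonic bases, in an exon of an alternative transcript, overlap an exon of *Prdx2* on the opposite strand. *Prdx2* was at 97.5 to 149 CPM in all libraries, with 103 and 131 CPM in lesional replicates 2 and 11.

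*Jun* encodes c-Jun, the usual partner of Fos proteins and the substrate of the JNK kinases. *Jun* was at 195, 135, 163, 132 and 128 CPM in the WT libraries, in the order given for *Junb*. It was at 152, 138, 161, 134 and 124 CPM in the non-lesional libraries. It was at 219, 136, 120, 278 and 98.5 CPM in the lesional libraries, of which 2 lay above and 2 below all WT libraries. The log2 fold change was 0.18 ± 0.26 between lesional and WT (edgeR quasi-likelihood test, adjusted p = 0.954) and -0.08 ± 0.13 between non-lesional and WT (adjusted p = 0.9998). Without lesional replicates 2 and 11 the first became -0.36 ± 0.17 (unadjusted p = 0.0551). *Jund*, a Jun gene expressed in most resting cells, was at 61.6 to 104 CPM in WT, 62.9 to 91.3 CPM in non-lesional and 67.7 to 96.7 CPM in lesional libraries, and lesional replicates 2 and 11 (89.4 and 86.6 CPM) did not stand out. Its log2 fold changes were -0.18 ± 0.15, -0.03 ± 0.16 and 0.16 ± 0.15 for non-lesional against WT, lesional against WT and lesional against non-lesional. The first was -0.11 without WT replicate 4 and -0.28 without WT replicate 13 (edgeR quasi-likelihood test, unadjusted p = 0.480 and 0.0487, adjusted p = 0.999 and 0.994). Antisense genes share exonic bases with *Jun* and *Jund* but held at most 8 and 4 counts in a library.

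*Fos* encodes c-Fos, the prototype immediate-early factor. It was at 17.5, 9.61, 22.8, 8.43 and 8.64 CPM in the WT libraries. It was at 16.0, 2.55, 35.02, 8.01 and 11.4 CPM in the non-lesional libraries and at 24.96, 14.9, 14.4, 47.6 and 5.34 CPM in the lesional libraries. The 3 ranges overlapped, and the log2 fold change was 0.68 ± 0.49 between lesional and WT (edgeR quasi-likelihood test, adjusted p = 0.928), 0.55 ± 0.64 between lesional and non-lesional and 0.13 ± 0.57 between non-lesional and WT. Without lesional replicates 2 and 11 the difference between lesional and WT was -0.21 ± 0.40.

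*Fosb*, a Fos gene with similarly rapid induction, spread over a wider range. It was at 12.03, 9.17, 18.8, 3.79 and 5.26 CPM in the WT libraries, at 4.90, 0.425, 44.9, 2.80 and 8.30 CPM in the non-lesional libraries, and at 4.99, 0, 13.6, 78.1 and 1.94 CPM in the lesional libraries. The 0 in lesional replicate 5 allows up to 1.54 CPM at that depth (3 counts, for counting error only). A single library decided the direction of the fitted difference in each comparison. The log2 fold change between lesional and WT was 1.01 ± 1.04 with all libraries and -0.85 without lesional replicate 11. Between lesional and non-lesional it was 0.67 ± 1.29 with all libraries and -1.18 without lesional replicate 11, and between non-lesional and WT it was 0.34 ± 0.94 with all libraries and -1.25 without non-lesional replicate 9. Differences of mean log2 CPM, which weight the low libraries more, were -0.43 between lesional and WT, -0.53 between non-lesional and WT and 0.10 between lesional and non-lesional (two-sided exact permutation tests, p = 0.738, 0.563 and 0.929), so that the first 2 had the opposite sign of the fitted values.

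*Fosl1* encodes FRA-1, a Fos protein known for its increase in wounded and transformed epithelia, and was the member with the fewest counts (0 to 25 in a library). It was at 0, 1.31, 3.13, 0.422 and 0.751 CPM in the WT libraries, where the 0 in replicate 1 allows up to 1.16 CPM. It was at 0.445, 1.70, 3.71, 0.401 and 1.31 CPM in the non-lesional libraries and at 7.26, 1.54, 3.20, 12.5 and 1.46 CPM in the lesional libraries, of which 3 lay above all WT libraries. *Fosl1* did not pass the filter on low counts. In a fit without that filter its log2 fold change was 2.20 ± 0.70 between lesional and WT (edgeR quasi-likelihood test, unadjusted p = 0.00471, adjusted p = 0.721) and 1.73 ± 0.61 between lesional and non-lesional (unadjusted p = 0.00786, adjusted p = 0.730), in which 4.78% of 27027 and 4.49% of 27316 genes had an unadjusted p under 0.05. The exact permutation test of lesional against WT gave a difference of 1.46 in mean log2 CPM (two-sided p = 0.0397, the only one of 27 such tests with p under 0.05), and the p was above 0.05 when any of 7 single libraries was left out, with differences of 1.09 without lesional replicate 11, 1.27 without lesional replicate 2 and 0.71 without both (p = 0.214). These values are uncertain because 1163 of the 2033 exonic bases of *Fosl1* (chr19:5447547-5455946, GRCm38, plus strand) lie within exons of *Ccdc85b* on the opposite strand, the counting assigned a read to every gene it overlaps, and no strand option is listed for it, so that a read within these bases counts for both genes. The shared bases include the 3′ end of *Fosl1*, while the 3′ end of *Ccdc85b*, at position 5453180, lies outside the exons of *Fosl1*. *Ccdc85b* was at 12.3 and 16.5 CPM in lesional replicates 2 and 11 and at 1.55 to 12.6 CPM in the other libraries, the highest of these being lesional replicate 14, where *Fosl1* was at 1.46 CPM.

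*Fosl2* encodes FRA-2, which is expressed in differentiating epidermis. It was at 148 to 194 CPM in WT, 143 to 173 CPM in non-lesional and 130 to 287 CPM in lesional libraries. Only lesional replicate 11 (287 CPM) exceeded the WT range, with lesional replicate 2 at 179 CPM. The log2 fold change between lesional and WT was 0.17 ± 0.20 (edgeR quasi-likelihood test, adjusted p = 0.946), and -0.05 without lesional replicate 11.

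*Atf3* showed a pattern that the groups did not follow. It was at 11.3, 6.11, 59.5, 10.96 and 1.88 CPM in the WT libraries, at 9.35, 4.25, 56.9, 8.81 and 9.61 CPM in the non-lesional libraries, and at 15.4, 6.16, 24.0, 59.6 and 10.2 CPM in the lesional libraries. WT replicate 7, non-lesional replicate 9 and lesional replicate 11 held nearly the same level, and the next highest was lesional replicate 8. Libraries 7, 8 and 9 have consecutive numbers, and in the fit with such sets as a block the log2 fold change was 0.06 ± 0.27 between non-lesional and WT, 0.65 ± 0.61 between lesional and WT and 0.51 ± 0.58 between lesional and non-lesional. Without the block it was 0.02 ± 0.99 between non-lesional and WT, 0.38 ± 0.85 between lesional and WT and 0.37 ± 0.78 between lesional and non-lesional (edgeR quasi-likelihood test, adjusted p of 0.979 or more). Leaving out WT replicate 7 moved the difference between non-lesional and WT to 1.24 and that between lesional and WT to 1.61. Leaving out non-lesional replicate 9 moved the difference between non-lesional and WT to -1.13 and that between lesional and non-lesional to 1.52. Without lesional replicate 11 the 2 differences of lesional skin, from WT and from non-lesional, were -0.32 and -0.33.

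*Egr1* was at 122, 27.5, 63.6, 40.9 and 49.6 CPM in the WT libraries, at 78.8, 26.4, 89.4, 37.7 and 48.9 CPM in the non-lesional libraries, and at 118, 29.8, 44.4, 174 and 47.1 CPM in the lesional libraries. Lesional replicate 11 was highest and WT replicate 1 second, just above lesional replicate 2. The log2 fold change was 0.44 ± 0.53 between lesional and WT (edgeR quasi-likelihood test, adjusted p = 0.946), 0.55 ± 0.51 between lesional and non-lesional and -0.11 ± 0.46 between non-lesional and WT. The difference between lesional and WT was 0.87 without WT replicate 1 and -0.59 without lesional replicates 2 and 11.

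Set against the whole table, none of the 8 members that passed the filter had an adjusted p under 0.05 in any comparison, and neither did any of the 13021, 12918 and 12864 genes tested (0% called in non-lesional against WT, in lesional against WT and in lesional against non-lesional). With all libraries and these settings none of the 8 had an unadjusted p under 0.05, where 411 of all genes (3.16%), 621 (4.81%) and 543 (4.22%) did, with smallest unadjusted p-values among the members of 0.230, 0.0584 and 0.0812. DESeq2's Wald test called 3, 1 and 0 genes at an adjusted p under 0.05, no member among them. The library numbers fall into sets of 3 (1 to 3, 4 to 6 and so on) with 1 library of each group, and with these sets as a block 8 genes (0.0614%), 0 (0%) and 0 (0%) had an adjusted p under 0.05 and 5.92%, 4.59% and 5.19% an unadjusted p under 0.05, while the smallest unadjusted p of a member was 0.224, 0.218 and 0.223. What the sets stand for is not given in the labels. The ranges of the groups overlapped for all 9 genes in all 3 comparisons, while they did not overlap for 0.66%, 0.681% and 0.63% of the genes tested. The median log2 fold change of the 8 members was -0.01 between non-lesional and WT, 0.41 between lesional and WT and 0.46 between lesional and non-lesional, beside medians of 0.00 over all genes. The fitted sign was positive for 4, 7 and 8 of the 8, beside 49.4%, 49.5% and 50.6% of all genes. The comparisons with lesional skin share the lesional libraries, and without lesional replicates 2 and 11 the medians of the members were -0.30 and -0.34.

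**Figure D2:**
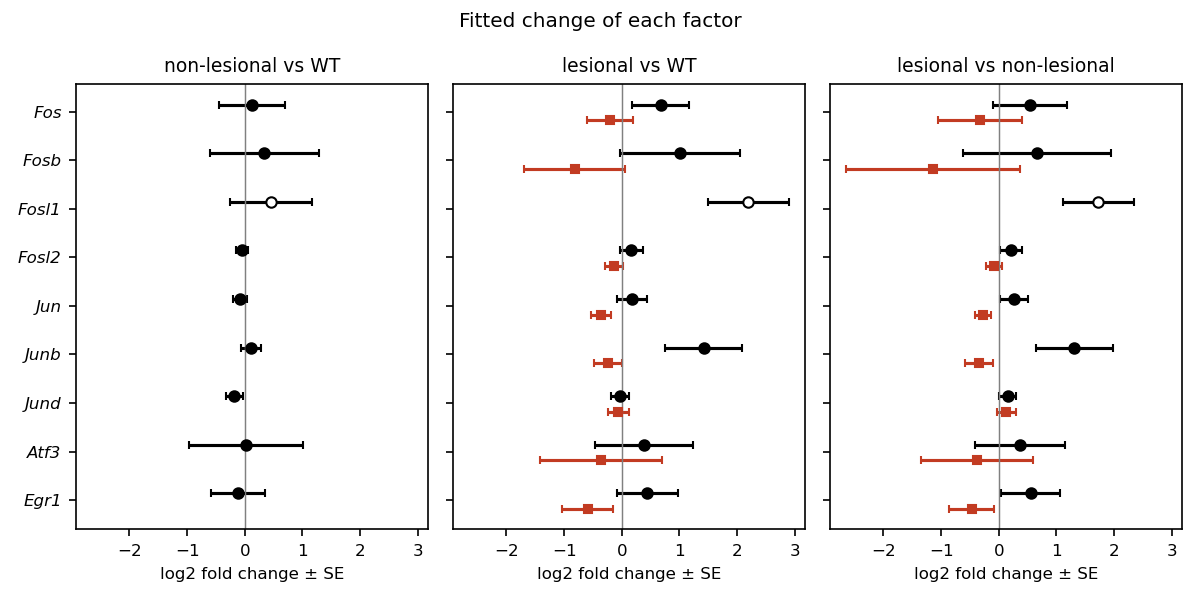
Fitted log2 fold change with its standard error for each gene in the 3 comparisons, with all libraries (black, open for *Fosl1*, which was fitted without the filter on low counts) and without lesional replicates 2 and 11 (red squares). With all libraries *Junb* stood at 1.42 between lesional and WT, and without these 2 libraries it stood at -0.24.

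The makeup of each family was compared as a share of the family's counts in a library, which does not depend on the scaling between libraries. Among the Jun genes *Jun* made up 52.7% ± 2.37 (SD, n = 5) of counts in WT, 52.9% ± 4.17 in non-lesional and 46.5% ± 5.65 in lesional libraries. The share of *Jun* was 46.9, 54.3, 45.0, 38.5 and 47.5% in lesional libraries 2, 5, 8, 11 and 14, and 4 of these 5 lay below the lowest WT value of 50.3%. The difference was -6.22 percentage points against WT and -6.41 against non-lesional (two-sided exact permutation tests, p = 0.0476 each, unadjusted, 2 of the 21 share tests with p under 0.05). The share tests treat libraries as independent, while libraries of a set of consecutive numbers deviated together, and shares were not tested within sets. The p against WT exceeded 0.05 on leaving out any single library other than lesional replicate 5, and the differences without lesional replicate 11 were -4.24 and -4.43 points. Leaving out lesional replicates 2 and 11 gave -3.74 and -3.93 points (exact permutation p = 0.196 and 0.161). *Junb* made up 49.4% of the Jun family in lesional replicate 11 and 33.9% in lesional replicate 2, against 11.1 to 21.8% in the other 13 libraries, and *Jund* made up 41.0 and 36.3% in lesional replicates 14 and 8, against 25.0 to 38.6% in WT and non-lesional libraries. The share of *Jun* was thus low in lesional libraries 2 and 11 beside a high share of *Junb*, and in libraries 14 and 8 beside shares of *Jund* above or near the highest of the other groups.

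**Figure D3:**
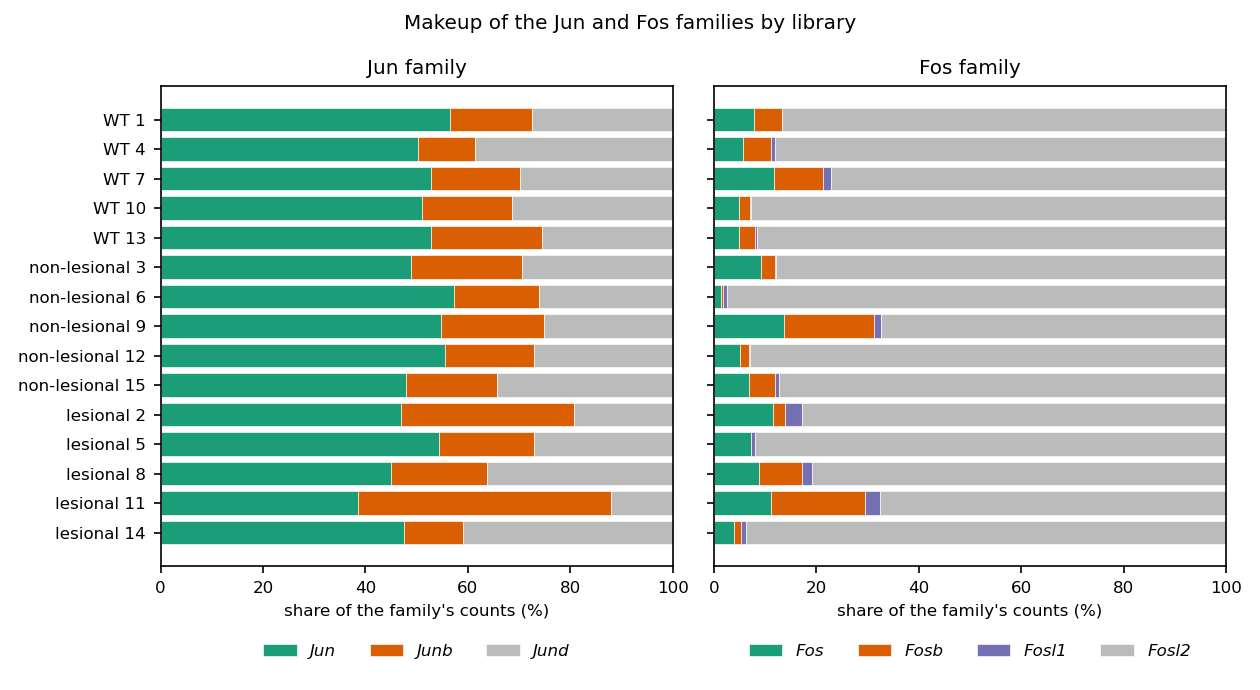
Share of each gene in the counts of its family (percent, stacked bars from 0 to 100) in each of the 15 libraries. *Junb* took 33.9 and 49.4% of the Jun family in lesional replicates 2 and 11, and *Fosl2* took 67.3 to 97.4% of the Fos family.

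In the Fos family *Fosl2* was the main member in every library, with 87.3% ± 6.18 of counts in WT, 86.5% ± 11.5 in non-lesional and 83.4% ± 10.5 in lesional libraries. *Fosl2* had its lowest shares in non-lesional replicate 9 (67.3%) and lesional replicate 11 (67.5%), where *Fosb* took 17.6 and 18.4%. *Fosl1* made up 2.02% ± 1.14 in lesional libraries against 0.611% ± 0.623 in WT, a difference of 1.40 points (two-sided exact permutation test, p = 0.0556). Leaving out lesional replicates 2 and 11 gave 0.65 points (exact permutation p = 0.232). The summed Jun family was at 284 ± 41.9 CPM in WT, 270 ± 31.6 CPM in non-lesional and 382 ± 214 CPM in lesional libraries, and the summed Fos family at 187 ± 22.8, 187 ± 39.5 and 229 ± 114 CPM. Lesional replicates 2 and 11 held 466 and 721 CPM of the Jun family, and the other 3 lesional libraries 207 to 267 CPM. For the Fos family these values were 216 and 426 CPM, against 138 to 205 CPM.

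The levels of the members were also compared across libraries. Over the 15 libraries, log2 CPM of *Fos* was compared with that of each other member. Pearson's r was 0.79 for *Egr1* (permutation p = 0.00043), 0.76 for *Atf3* (p = 0.001), 0.76 for *Fosb* (p = 0.00141), 0.74 for *Jun* (p = 0.0016) and 0.73 for *Junb* (p = 0.00154). Spearman's rho for these was 0.79 (p = 7e-04), 0.72 (p = 0.00361), 0.70 (p = 0.00465), 0.74 (p = 0.00204) and 0.89 (p = 5e-05). For *Fosl1*, *Fosl2* and *Jund* r was 0.58 (permutation p = 0.0245), 0.55 (p = 0.0378) and 0.39 (p = 0.154), and rho was 0.51 (p = 0.0536), 0.50 (p = 0.0624) and 0.40 (p = 0.139). These are the 8 relations with *Fos*, and the p-values are unadjusted. Without lesional replicate 11 and non-lesional replicate 6, the 2 libraries farthest from the median of *Fos*, r was 0.65 for *Egr1*, 0.68 for *Atf3*, 0.56 for *Fosb*, 0.77 for *Jun*, 0.70 for *Junb*, 0.55 for *Fosl1*, 0.53 for *Fosl2* and 0.18 for *Jund*. After the group means were subtracted r was 0.78, 0.75, 0.80, 0.73, 0.72, 0.56, 0.52 and 0.36 in the same order. These values and p-values treat the 15 libraries as independent, while libraries of a set of 3 consecutive numbers deviated together. After the set means were subtracted, and with libraries permuted only within their set (two-sided exact permutation test, 7776 regroupings), r was 0.80 for *Egr1* (p = 0.000772), 0.77 for *Jun* (p = 0.01), 0.74 for *Junb* (p = 0.0203) and 0.67 for *Atf3* (p = 0.0462). In the same exact permutation test it was 0.74 for *Fosl2* (p = 0.0502), 0.67 for *Fosb* (p = 0.123), 0.61 for *Fosl1* (p = 0.0791) and 0.22 for *Jund* (p = 0.601). With lesional replicates 2 and 11 left out, r over the other 13 libraries was 0.71 for *Fosb*, 0.70 for *Atf3*, 0.67 for *Egr1*, 0.63 for *Junb*, 0.57 for *Jun*, 0.37 for *Jund*, 0.26 for *Fosl1* and 0.21 for *Fosl2*. Pearson's r was also computed, without a test, for all 36 pairs of members, of which *Jun* and *Junb* had the highest r (0.90) and *Fosl2* and *Jund* the lowest (-0.10). These were 0.67 and -0.36 without lesional replicates 2 and 11.

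**Figure D4:**
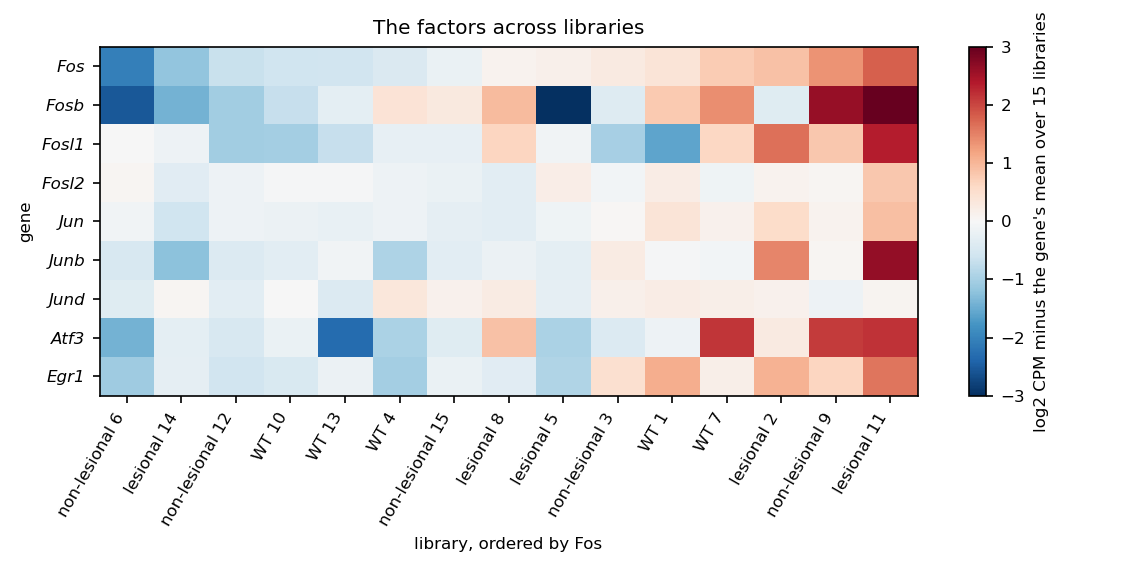
Log2 CPM of each gene minus its mean over the 15 libraries (colour scale, ending at -3 and 3), with libraries ordered from the lowest (left) to the highest (right) level of *Fos*. Libraries of the 3 groups are mixed along this order, and lesional replicate 11, non-lesional replicate 9, lesional replicate 2 and WT replicate 7 are the 4 with the highest *Fos*, at 47.6, 35.02, 24.96 and 22.8 CPM.

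The genes most like each member were taken as the 3 with the highest Pearson's r of log2 CPM over the 15 libraries, as a description. The gene nearest to *Fos* was *Mir22hg*, the host transcript of a microRNA (r = 0.91), followed by *Twf1* (0.84) and *Fam167a* (0.84). *Junb* was most like *Ptbp3* (0.98), *Gltp* (0.98) and *Jup* (0.98), which encodes the junction protein plakoglobin, and *Jun* was most like *Cldnd1* (0.96), *Bzw1* (0.94) and *Plet1* (0.93). *Egr1* was most like *Sprr1a* (0.93), a cornified envelope precursor that ranged from 30.3 to 1242 CPM, *Iffo2* (0.92) and *Epha4* (0.91). The nearest genes were *Stambp* (0.88), *Primpol* (0.85) and *Tent5a* (0.81) for *Fosb*, *Arpc2* (0.91), *Traf3* (0.87) and *Slfn2* (0.87) for *Fosl1*, and *Mpp7* (0.91) and *Pnpt1* (0.89) for *Fosl2*. For *Atf3* they were *B3gntl1* (0.88), *Trib1* (0.84) and *Lmna* (0.82). For *Jund* they were *Cxcr5* (0.92) and 2 overlapping gene records of *Zc3h11a* (0.86 each), which share reads. Over the 13 libraries other than lesional replicates 2 and 11, r with the genes named was 0.84 to 0.89 for *Junb*, 0.81 to 0.89 for *Jun*, 0.84 to 0.89 for *Egr1* and 0.63 to 0.93 over all members.

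Several genes with known AP-1 sites were highest in lesional replicates 2 and 11, as was *Junb*. Of 20 such genes 12 passed the filter, and 4 of these had an unadjusted p under 0.05 and a higher level in lesional than in WT (edgeR quasi-likelihood test), where 3.24% of all genes were higher and 1.56% lower at that threshold. None had an adjusted p under 0.05. *Hbegf*, a growth factor released at the cell surface, was at 152.5 and 348.5 CPM in lesional replicates 2 and 11 and at 8.41 to 26.0 CPM in the other 13 libraries, with a log2 fold change of 2.92 ± 1.03 (unadjusted p = 0.0195). The wound-induced keratin *Krt16* was at 900.2 and 2868 CPM in these 2 libraries and at 4.25 to 98.0 CPM elsewhere (log2 fold change 4.78 ± 1.82, unadjusted p = 0.0281). Its relative *Krt6a* was at 4973 and 15389 CPM against 228 to 1190 CPM (2.98 ± 1.24, unadjusted p = 0.0399). The fourth, *Mmp9*, a gelatinase also made by neutrophils, was named after its value was seen and had 1.88 ± 0.82 (unadjusted p = 0.0442). Between lesional and non-lesional 3 of the 12, *Krt6a*, *Hbegf* and *Krt16*, had an unadjusted p under 0.05, all higher, where 2.89% of all genes were higher and 1.33% lower. These shares were 275 higher to 235 lower genes under upper quartile scaling, in place of 372 to 171. The median of the 12 was 0.72 against WT and 0.74 against non-lesional, and without lesional replicates 2 and 11 it was -0.19 and -0.27, with 0 of 12 at an unadjusted p under 0.05 in either, where 394 of 13415 genes (2.94%) and 471 of 13403 (3.51%) were.

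**Figure D5:**
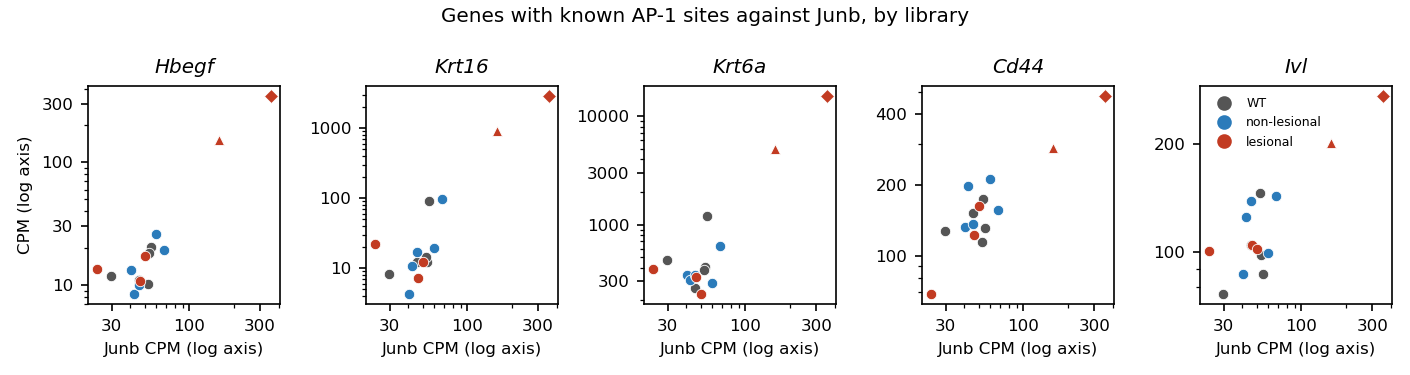
Level of 5 genes with known AP-1 sites against that of *Junb* (both in CPM on log axes), 1 point per library coloured by group, with lesional replicate 2 as a triangle and lesional replicate 11 as a diamond. *Hbegf* was at 348.5 CPM where *Junb* was at 357 CPM, and the 13 remaining libraries form a cloud in which *Junb* stayed between 23.8 and 67.7 CPM.

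*Cd44*, a hyaluronan receptor, and *Ivl*, a cornified envelope precursor, had log2 fold changes of 0.68 ± 0.43 and 0.61 ± 0.30 between lesional and WT (unadjusted p = 0.140 and 0.0637, edgeR quasi-likelihood test). *Cd44* was at 288 and 479 CPM in lesional replicates 2 and 11 and at 68.4 to 211 CPM in the other 13 libraries. *Ivl* was at 201.5 and 272 CPM in these 2 and at 76.4 to 146 CPM in the others. Between non-lesional and WT none of the 12 genes had an unadjusted p under 0.05, where 1.85% of all genes were higher and 1.31% lower, and *Cd44*, *Ivl* and *Krt6a* had 0.26 ± 0.15, 0.21 ± 0.17 and -0.50 ± 0.43.

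Among 39 other immediate-early genes, 34 passed the filter and had median log2 fold changes of -0.10, 0.06 and 0.18 for non-lesional against WT, lesional against WT and lesional against non-lesional. A single gene had an unadjusted p under 0.05 in each comparison (edgeR quasi-likelihood test), and none an adjusted p under 0.05. This is 1 of 34 genes beside 3.16%, 4.81% and 4.22% of all genes. Without lesional replicates 2 and 11 the medians of the list were -0.21 against WT and -0.0801 against non-lesional, and 2 of 34 and 1 of 35 genes had an unadjusted p under 0.05, all lower in lesional skin, beside 2.94% and 3.51% of all genes. They were *Dusp1* and *Pim1* against WT and *Egr2* against non-lesional, named after their values were seen. With all libraries the genes were *Klf2*, a factor expressed in endothelium and lymphocytes (-0.31 ± 0.12, unadjusted p = 0.019, non-lesional against WT), and the polo-like kinases *Plk2* (0.96 ± 0.44, unadjusted p = 0.0498, lesional against WT) and *Plk3* (0.65 ± 0.29, unadjusted p = 0.0447, lesional against non-lesional). *Plk2* was at 34.0 and 35.6 CPM in lesional replicates 2 and 11 and at 6.60 to 16.9 CPM in the others. *Plk3* was at 79.1 CPM in lesional replicate 11, 35.8 CPM in lesional replicate 2 and 16.8 to 43.0 CPM in the other 13. The ERK phosphatase *Dusp5* had 1.07 ± 0.50 (unadjusted p = 0.055) and *Ier5* 0.69 ± 0.32 (unadjusted p = 0.0518) in lesional against WT, and *Gadd45b* -0.44 ± 0.21 and *Sik1* -0.65 ± 0.35 in non-lesional against WT (unadjusted p = 0.0521 and 0.0834).

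Of 15 other AP-1 and ATF leucine zipper factors 12 passed the filter, and none had an adjusted p under 0.05. With an unadjusted p under 0.05 there were 0 of 12 between non-lesional and WT, 1 of 12 (higher) between lesional and WT and 3 of 12 (2 higher, 1 lower) between lesional and non-lesional, beside 3.16%, 4.81% and 4.22% of all genes. Medians were -0.0896, 0.0628 and 0.0730. The medians for lesional skin without lesional replicates 2 and 11 were -0.0333 and 0.0718, and 1 of 12 genes was higher in each comparison (*Atf5* against WT, named after its value was seen, and *Jdp2* against non-lesional), beside 2.94% and 3.51% of all genes. *Atf4*, the effector of the integrated stress response, was at 231 to 442 CPM in lesional, 212 to 261 CPM in non-lesional and 199.5 to 260.1 CPM in WT libraries, with log2 fold changes of 0.43 ± 0.17 against WT and 0.38 ± 0.16 against non-lesional (edgeR quasi-likelihood test, unadjusted p = 0.0245 and 0.0366). *Jdp2*, a repressor that pairs with Jun proteins, had 0.60 ± 0.23 between lesional and non-lesional (unadjusted p = 0.0219). *Jdp2* was low in lesional replicate 2 (9.53 CPM) and at 15.9 to 21.4 CPM in the other lesional libraries, so that it did not follow *Junb*. *Crem*, a cAMP-responsive factor, was at 4.40 to 6.16 CPM in lesional and 7.43 to 9.62 CPM in non-lesional libraries, without overlap, as for 0.63% of all genes (-0.65 ± 0.24, unadjusted p = 0.016), but at 4.92 to 9.77 CPM in WT. The Maf factors and *Jdp2* had values between -0.31 and 0.44 in the other comparisons named by rank, with unadjusted p of 0.113 or more.

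The MAP kinases that act upstream of AP-1 had medians near those of all genes. Of 27 MAP kinases and SRF cofactors 24, 24 and 25 passed the filter in non-lesional against WT, lesional against WT and lesional against non-lesional, with medians of -0.04, -0.03 and 0.01. The single unadjusted p under 0.05 was that of *Map2k7*, which activates JNK (-0.32 ± 0.14, unadjusted p = 0.0383, edgeR quasi-likelihood test, non-lesional against WT), which is 1 of 24 genes beside 3.16% of all genes, with 0 of 24 and 0 of 25 in the comparisons of lesional skin beside 4.81% and 4.22%. The ERK gene *Mapk3* had 0.28 ± 0.19 and 0.38 ± 0.19 in lesional against WT and against non-lesional (edgeR quasi-likelihood test, unadjusted p = 0.157 and 0.0721). It was at 267 and 310 CPM in lesional replicates 2 and 11 and at 133.5 to 200.3 CPM in the other 13 libraries.

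Of 13 heat shock and unfolded protein response genes 12, 13 and 13 were tested in the same order, and none had an adjusted p under 0.05. *Asns*, an ATF4 target, was at 12.83 to 30.05 CPM in lesional and 7.16 to 12.77 CPM in WT libraries. These ranges did not overlap, as for 0.681% of all genes, but the gap lay within counting error. It was between lesional replicate 5 (25 counts) and WT replicate 13 (34 counts). The log2 fold change was 0.82 ± 0.27 (edgeR quasi-likelihood test, unadjusted p = 0.00999). The endoplasmic reticulum chaperone *Hspa5* had 0.47 ± 0.21 in lesional against WT (unadjusted p = 0.0468). The cytosolic chaperone *Hsp90aa1* had 0.48 ± 0.14 in non-lesional against WT (unadjusted p = 0.00271) and 0.40 ± 0.19 in lesional against WT (unadjusted p = 0.0512). With all libraries 1 of 12, 2 of 13 and 0 of 13 genes had an unadjusted p under 0.05, beside 3.16%, 4.81% and 4.22% of all genes. Without lesional replicates 2 and 11 these were 0 of 13 against WT and 1 of 13 (*Hspa1b*, lower in lesional skin, named after its value was seen) against non-lesional, beside 2.94% and 3.51% of all genes.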

How the data were processed

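Skin RNA was profiled with QuantSeq 3′ (FWD) libraries. The methods name an RNA integrity number under 4 as a reason for exclusion and also for the samples kept, no value per library was used here, and the part of RNA quality in the results was not tested. Per the labels and the study's methods, the authors clipped adaptors with cutadapt (2.10), aligned reads with Subread to GRCm38 and counted them per gene with featureCounts (2.0.1). The counts the authors deposited are not normalised, and the CPM they deposited equal each count over its library total. The counting options listed name no strand setting, which leaves the unstranded default, the annotation release is not given in the sources used here, and coordinates are from GENCODE M21. The 92 spike-in rows, all at 0, were left out.

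Counts were fitted for each pair of groups with edgeR 4.0.16 (R 4.3.3; TMM, filterByExpr, robust quasi-likelihood F-test, Benjamini-Hochberg threshold 0.05), checked on simulated data. Levels are CPM on the TMM sizes of all 15 libraries, and log2 CPM used a prior count of 2. Exact permutation tests covered 252 regroupings of 5 against 5, with a smallest p of 0.00794, and correlations used 100000 resamples. A legend of the study gives 5 mice for these profiles, while the labels tie no library to an animal, so p-values measure the spread between these samples. No 2 libraries of a group agreed within sampling noise. PCR copies were not removed, so limits from counts cover counting error only.

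The members, lists and tests were chosen with earlier results of these data known. Genes named were the members, at most 3 per other list and comparison by unadjusted p, the 3 most alike per member, of which 1 is not reported here, and exceptions stated. Alternatives were DESeq2 1.42.0, limma 3.58.1 voomWithQualityWeights, DESeq2 size factors or upper quartile in edgeR, no filter, a stricter filter (10 counts or more in each sample), 1 fit over all 15 libraries, no robust estimation, a threshold of 0.1, a prior count of 0.5 and leaving out each library. Leaving out lesional replicates 2 and 11 together, and a block for, or permutation within, sets of 3 consecutive library numbers, were chosen after seeing the data. Libraries of a set deviated together from their group means, with Pearson's r across 13454 genes of 0.12 to 0.27 between non-lesional and WT, 0.11 to 0.35 between lesional and non-lesional and -0.093 to 0.27 between lesional and WT (5 pairs each), and 10, 9 and 5 of 10 libraries correlated best with their own set. The labels do not say what a set shares.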

Additional observations from a re-analysis of the deposited data

Results flagged for a closer look

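In 4 of 27 groups of 5 values (9 genes in 3 groups) the highest library lay far from the rest by Dixon's test, which chance alone flags in about 1 in 20 groups of normally distributed values. These are CPM on a linear scale, and on log2 CPM 0 of the 27 groups passed the same limit. *Fosb* was at 44.9 CPM in non-lesional replicate 9, where the other 4 libraries of the group were at 0.425 to 8.30 CPM. *Fosb* was at 78.1 CPM in lesional replicate 11, where the others were at 0 to 13.6 CPM. *Atf3* was at 59.5 CPM in WT replicate 7 against 1.88 to 11.3 CPM, and at 56.9 CPM in non-lesional replicate 9 against 4.25 to 9.61 CPM.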

How the results depend on the processing

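The groups share no library numbers, and in place of a pairing from the labels the sets of 3 consecutive numbers were used as a block. With this block 8 genes were called between non-lesional and WT, in place of 0, *Fos* and *Fosb* were -0.000823 and -0.10 there and *Fosb* -0.16 between lesional and WT, and 0 genes were called in the other comparisons. No member passed an adjusted p of 0.05 under any setting tried. Without a filter 18 genes were called between non-lesional and WT, DESeq2 called 3 there and 1 between lesional and WT, and leaving out single libraries gave 0 to 5 between non-lesional and WT (5 without non-lesional replicate 6). Direction also changed for fitted log2 fold changes of members, differences of mean log2 CPM and shares of *Junb*, none of them past the threshold with all libraries, and the cause was not tested. Under voomWithQualityWeights *Fos* and *Fosb* were -0.29 and -0.84 (non-lesional against WT), *Fosb* and *Jun* -1.10 and -0.0193 (lesional against WT) and *Fosb* -0.24 (lesional against non-lesional), and under DESeq2 *Atf3* was -0.0137 (non-lesional against WT). Without lesional replicates 2 and 11 together, lesional against WT gave *Fos* -0.21, *Fosb* -0.82, *Fosl2* -0.13, *Jun* -0.36, *Junb* -0.24, *Atf3* -0.36 and *Egr1* -0.59, and lesional against non-lesional gave -0.33, -1.14, -0.0831, -0.27, -0.34, -0.37 and -0.47 in the same order. Leaving out single libraries gave, between non-lesional and WT, -0.50 to 0.40 for *Fos*, -1.25 to 0.70 for *Fosb*, -0.0737 to 0.0297 for *Fosl2*, -0.14 to 0.0279 for *Jun*, -0.0171 to 0.18 for *Junb*, -1.13 to 1.24 for *Atf3* and -0.35 to 0.31 for *Egr1*. Between lesional and WT it gave -0.85 to 1.37 for *Fosb*, -0.0528 to 0.27 for *Fosl2*, -0.0694 to 0.32 for *Jun*, -0.13 to 0.048 for *Jund*, -0.32 to 1.61 for *Atf3* and -0.0219 to 0.87 for *Egr1*. Between lesional and non-lesional it gave -1.18 to 2.25 for *Fosb*, -0.0113 to 0.31 for *Fosl2* and -0.33 to 1.52 for *Atf3*. Differences of mean log2 CPM of *Fosb* were -1.24 to 0.0492 between non-lesional and WT, -1.31 to 0.32 between lesional and WT and -0.78 to 0.85 between lesional and non-lesional on leaving out single libraries, and the last was -0.11 with a prior count of 0.5. Without lesional replicates 2 and 11 together it was -0.99, that of *Junb* was -0.27 and -0.38 (lesional against WT and against non-lesional), and the share of *Junb* differed by -0.47 and -2.50 points. The number of permutation tests of members with p under 0.05, 1 of 27 with all libraries, was 0 to 1, and of share tests, 2 of 21, was 0 to 4, and both were 0 without lesional replicates 2 and 11 together. Of the 8 relations with *Fos*, 7 had a p under 0.05 after adjustment over the 8, 4 without these 2 libraries and 2 within the sets as a block. At 1962604 to 2567138 counts per library, *Fosl1* held 0 to 25 counts.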
